A study of Mus musculus with 2 samples.

Results

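Neuropeptide precursors are the larger proteins from which neurons cut the short signalling peptides that they release. The 10 precursor genes described here are Sst, Npy, Tac1, Penk, Pdyn, Cck, Gal, Cartpt, Adcyap1 and Vip. They were chosen by gene name from the 45578 genes of the deposited table, and all 10 were found. The footprints of every annotated transcript of a gene were summed and set against the length of its coding sequence. The tissue was brain from 2 control mice at postnatal day 5, sampled as biological replicates 1 and 2 of 1 group. Both animals were of genotype Smn+/-; SMN2tg/0, which leaves 1 working copy of the mouse Smn gene and adds a human SMN2 transgene, on the FVB strain. No animal without these alleles was compared, so the values describe this genotype. The assay, ribosome profiling of polysomes, sequences the pieces of mRNA that translating ribosomes protect from RNase; fragments of 25 to 35 nucleotides were kept.

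A precursor enters the secretory pathway through a signal peptide, is packed into dense-core granules, and is cut there by prohormone convertases, mostly at pairs of basic residues. The released peptides act on G protein-coupled receptors and modulate transmission more slowly than glutamate or GABA. In the forebrain several of these genes mark types of neuron: Sst, Npy, Vip and Cck in sets of cortical interneurons, and Penk, Tac1 and Pdyn in striatal projection neurons. Cortical pyramidal cells also make Cck.

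The libraries held 1866831 footprints in replicate 1 and 5261878 in replicate 2, and a count of 0 allowed up to 1.61 CPM (counts per 1000000 footprints) and 0.570 CPM. Neuronal and glial markers were high in both libraries: pan-neuronal genes summed to 7328 and 5680 CPM, and astrocyte genes to 2131 and 2094 CPM. The 8 genes of liver, muscle, pancreas, kidney and lung summed to 2.68 and 5.51 CPM, with Alb and Umod at 0 in both. Genes were tested between the libraries where their counts averaged 10 or more. Of 16427 such genes, an exact binomial test called 17.4% different, 5.95% higher and 11.5% lower in replicate 2 (978 and 1883 genes). With library totals in place of TMM (trimmed mean of M values) scaling this split turned, to 1896 higher and 1227 lower. The test compares these 2 libraries and covers counting noise alone.

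All 10 precursors carried ribosome footprints in both brains, and Sst, the somatostatin gene, had the most. The set held 1252 footprints in replicate 1 and 2340 in replicate 2. Summed over the 10 genes this was 671 CPM (634 to 709) and 445 CPM (427 to 463), where ranges are Clopper-Pearson 95% intervals, and a mean of 558 ± 160 (SD, n = 2). The summed level was 1.51 times higher in replicate 1, and 1.26 times higher with Sst left out. Sst supplied 37.1% of the set's footprints in replicate 1 (34.5 to 39.9) and 25.0% in replicate 2 (23.3 to 26.9). Sst, Penk and Cck together supplied 69.2% and 62.1%. Fewer cells of a type and less mRNA per cell cannot be told apart in whole tissue. They are not the only possible sources, and no source of the difference between the libraries was tested.

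Promoter sequence is shown because Sst, Cck and Npy were lower together in replicate 2, as described further on, and because Sst is a textbook target of the factor CREB, which binds the cAMP response element. Whether the site has a part in these ratios was not tested. RefSeq promoters (GRCm38.p6) were found for 9 of the 10 genes, all but Penk. The 250 bases before each annotated start were searched on both strands for TGACGTCA, a palindrome, and for its shorter form, TGACG or CGTCA. The full site occurs in 1.55% of all 32851 promoters in that table and in those of Sst and Cartpt. A short or full site, which overlap by construction, occurs in 17.8% of all promoters. It occurs in 7 of the 11 promoters of the 9 genes, which belong to 6 genes. The matches below are written 5′ to 3′ on the gene's strand with the site in capitals.
Sst, chr16:23890874-23890903, minus strand, site 48 bases before the start: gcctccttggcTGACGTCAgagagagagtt
Cartpt, chr13:99900777-99900806, minus strand, 112 bases before: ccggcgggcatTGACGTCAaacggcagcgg
Vip, chr10:5639127-5639156, plus strand, 79 bases before: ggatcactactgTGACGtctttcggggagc
Adcyap1, chr17:93198914-93198943, plus strand, 91 bases before: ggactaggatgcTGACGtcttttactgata
Cck, chr9:121495724-121495753, minus strand, 47 bases before: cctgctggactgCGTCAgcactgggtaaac
Tac1, chr6:7555006-7555035, plus strand, 43 bases before: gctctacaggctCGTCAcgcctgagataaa

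The coding sequences of all 10 genes were short but unequal, so level and density ranked them differently. They ran from 294 to 807 nucleotides, with a median of 382.5, against a median of 1359 over the 13349 coding genes tested. Coding density is the level divided by the coding length in kilobases, and it compares genes of unequal length. By mean level 5 of the 10 lay above the median coding gene (34.4 CPM), while by mean density 9 did (24.6 CPM per kb). The lowest of these 9, Pdyn, was at percentile 56.7 of density in replicate 1 but 47.5 in replicate 2. Penk, whose coding sequence was the longest, had rank 2 by mean level and rank 5 by mean density. Its rank by level is not resolved from that of Cck. In replicate 1 Penk had 107 CPM (92.8 to 123) and Cck 108 CPM (93.8 to 124). By mean density Cck, Npy and Tac1, with 348, 294 and 348 nucleotides, passed Penk. For Tac1 this rests on summing its transcripts, and the level of Penk also sums 2 transcripts. With only the highest transcript per gene, scaled to the total of such transcripts, Tac1 had 93.2 and Penk 150 CPM per kb. Footprints were deposited per transcript rather than per coding sequence, so the density takes them all as coding.

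**Figure D1:**
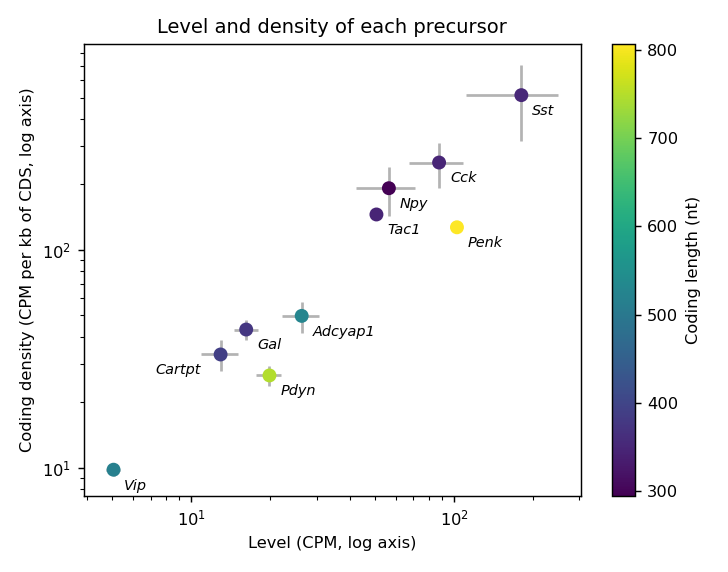
Mean level (CPM, log axis) against mean coding density (CPM per kilobase of coding sequence, log axis) of the 10 precursors, coloured by coding length in nucleotides, with bars from the lower to the higher replicate. Penk and Pdyn, with 807 and 747 nucleotides, sit to the right of genes of like density.

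The genes known as interneuron markers spanned the whole range of density. Sst encodes somatostatin, which inhibits the release of growth hormone and of several other hormones and transmitters. It had 465 footprints in replicate 1 and 586 in replicate 2, or 249 CPM (227 to 273) and 111 CPM (103 to 121). Over its 117 codons, the stop included, this was 3.97 and 5.01 footprints per codon before scaling for depth. Its density of 710 and 317 CPM per kb, with a mean of 513 ± 277 (SD, n = 2), was at percentile 98.4 of the coding genes. Sst was the highest of the 10 in each library, and its interval lay above that of the next gene in both.

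Cck, the cholecystokinin precursor, had 202 and 353 footprints, or 108 CPM (93.8 to 124) and 67.1 CPM (60.3 to 74.5). Its density of 311 and 193 CPM per kb, a mean of 252 ± 83.5 (SD, n = 2), was second in both libraries. Npy encodes neuropeptide Y, known for stimulating feeding and for dampening excitation, and had 132 and 222 footprints. Its level was 70.7 CPM (59.2 to 83.9) and 42.2 CPM (36.8 to 48.1), and its density 241 and 144 CPM per kb, a mean of 192 ± 68.6 (SD, n = 2). Vip, the precursor of vasoactive intestinal peptide, was the lowest of the set, with 10 and 25 footprints at 5.36 CPM (2.57 to 9.85) and 4.75 CPM (3.07 to 7.01). Both values exceeded the level that a count of 0 allowed. The density of Sst was 68.4 times that of Vip in replicate 1 and 34.5 times in replicate 2.

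**Figure D2:**
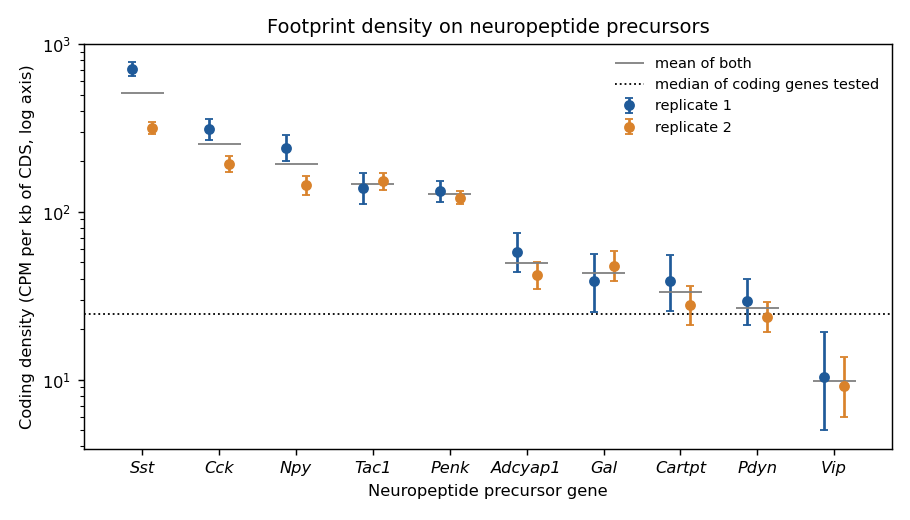
Coding density (CPM per kilobase of coding sequence, log axis) of each precursor in replicate 1 (blue) and replicate 2 (orange), with Clopper-Pearson 95% intervals that cover counting error; the grey bar is the mean and the dotted line the median of coding genes tested, 24.6 CPM per kb. Sst stands highest in both libraries, Vip is the only one of the 10 whose mean lies under the dotted line, and Sst, Cck and Npy are the 3 whose replicate intervals do not overlap.

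The opioid and tachykinin precursors were of middle to high density, and their replicate intervals overlapped. Penk encodes proenkephalin, the source of the enkephalins, and had 200 footprints in replicate 1 and 515 in replicate 2. This gave 107 CPM (92.8 to 123) and 97.9 CPM (89.6 to 107), or 103 ± 6.55 (SD, n = 2). Pdyn encodes prodynorphin, whose dynorphins prefer the kappa opioid receptor, and had 41 and 93 footprints at 22.0 CPM (15.8 to 29.8) and 17.7 CPM (14.3 to 21.7). The density of Penk was 4.52 times that of Pdyn in replicate 1 and 5.13 times in replicate 2, so footprints were denser on proenkephalin in both brains. Tac1, the precursor of substance P and neurokinin A, had 90 and 279 footprints at 48.2 CPM (38.8 to 59.3) and 53.0 CPM (47.0 to 59.6). With its 5 transcripts summed, its density of 139 and 152 CPM per kb was at percentile 88.8, next to that of Penk at 133 and 121 CPM per kb. The highest transcript alone gave Tac1 a lower density than Penk, as stated above.

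The remaining precursors lay in the middle of the range. Adcyap1 encodes the precursor of PACAP, a peptide related to VIP, and had 57 and 116 footprints at 30.5 CPM (23.1 to 39.6) and 22.0 CPM (18.2 to 26.4). Gal, the galanin precursor, had 27 and 94 footprints at 14.5 CPM (9.53 to 21.0) and 17.9 CPM (14.4 to 21.9). Cartpt, whose CART peptides are known for reducing feeding, had 28 and 57 footprints at 15.0 CPM (9.97 to 21.7) and 10.8 CPM (8.20 to 14.0). In each of the 3 the replicate intervals overlapped. Their mean densities were 49.8 ± 11.4 for Adcyap1, 43.1 ± 6.41 for Gal and 33.1 ± 7.55 for Cartpt (CPM per kb; SD, n = 2), at percentiles 69.0, 65.1 and 58.3. Pdyn followed at 26.5 ± 4.06 and Vip at 9.79 ± 0.830.

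The order by density was Sst, Cck, Npy, Tac1, Penk, Adcyap1, Gal, Cartpt, Pdyn and Vip. Replicate 1 gave this order on its own, and replicate 2 exchanged Npy with Tac1 and Adcyap1 with Gal. Neighbours had separate counting intervals in both libraries at 3 steps: from Sst to Cck, from Penk to Adcyap1 and from Pdyn to Vip. The other neighbours overlapped in at least 1 library, so their order is not resolved.

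Only Tac1, Penk and Pdyn had more than 1 annotated transcript; the other 7 genes had a single coding transcript each. For Tac1, alternative splicing is known to give several precursors, all holding substance P and some lacking neurokinin A. Its coding transcripts of 130, 115 and 112 amino acids took 27.8%, 31.1% and 25.6% of its footprints in replicate 1, and 29.0%, 34.1% and 26.2% in replicate 2. No form stood out, and since they share most of their exons and the handling of shared fragments is not stated, these shares are not isoform levels. For Penk the full-length transcript of 268 amino acids took 60.0% and 60.8%, and the rest fell on a shorter model of 177 amino acids. For Pdyn the transcript of 248 amino acids took 80.5% and 80.6%. Transcripts without a coding sequence held 3 of the set's footprints in each library.

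Beyond counting noise, 3 of the 10 precursors differed between the 2 libraries, Sst, Cck and Npy, all lower in replicate 2, where 11.5% of all tested genes were called lower. With edgeR's exact test at the common dispersion, which allows for spread between libraries, 0 of the 10 were called (3 at an unadjusted p under 0.05), and adjusted p was 0.272 for Sst and 1 for Npy and Cck. The log2 ratio of replicate 2 over replicate 1 was -1.28 for Sst (95% interval -1.47 to -1.11; exact binomial adjusted p = 1.2e-41). For Npy it was -0.86 (-1.19 to -0.55; exact binomial adjusted p = 3.16e-06), and for Cck -0.81 (-1.07 to -0.56; exact binomial adjusted p = 2.05e-08). For each of the 3 the level in replicate 1 lay above the interval of replicate 2.

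The other 7 precursors were not called. Adcyap1 (-0.58) and Penk (-0.26) had unadjusted p-values under 0.05, but exact binomial adjusted p of 0.0677 and 0.147. The log2 ratios were -0.57 for Cartpt, -0.43 for Pdyn and -0.27 for Vip, each with an interval that spanned 0. Those of Tac1, at 0.01 (-0.34 to 0.37), and Gal, at 0.17 (-0.45 to 0.85), were the 2 above 0. The median over the 10 was -0.50, against 0.01 over all tested genes, and 8 of the 10 were below 0 where 49.5% of tested genes were. TMM scaling had shifted all log2 ratios by -0.13. With library totals the median was -0.38 against 0.13 over all tested genes, 8 of 10 were below 0 where 38.1% of tested genes were, and Sst, Cck and Npy were the 3 called. The edgeR test called 11 of all tested genes, all higher in replicate 2. Its dispersion comes from the difference between the same 2 libraries.

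Genes of high density as a class were lower in replicate 2, and the 3 called precursors belong to it. Coding genes were split into 10 classes by density. In class 10, the highest, which holds Sst, Cck and Npy, the median log2 ratio was -0.24 and 50.0% of genes were called lower. Within that class, 0.150% of genes had a lower ratio than Sst, 4.57% a lower one than Npy and 6.74% a lower one than Cck. Tac1 and Penk lay in class 9, where the median was -0.10 and 26.4% of genes were called lower. With the trend removed, the log2 ratios were -0.95 for Sst, -0.68 for Npy and -0.59 for Cck, and the same 3 of 10 were called. After that step Tac1 stood at 0.16 and Penk at -0.13.

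**Figure D3:**
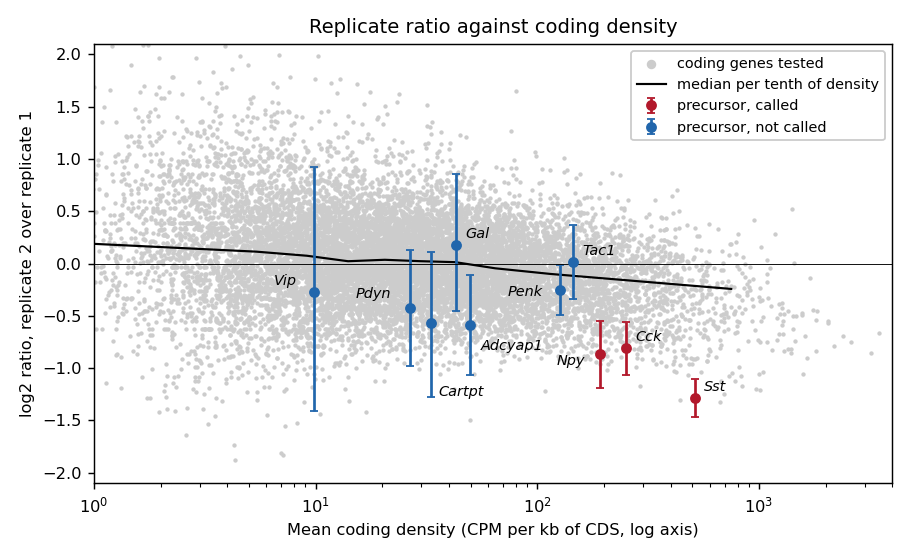
Log2 ratio of replicate 2 over replicate 1 against mean coding density (CPM per kilobase of coding sequence, log axis) for the 10 precursors, with 95% counting intervals, over the coding genes tested (grey; 136 genes fall outside the plotted range) and the median of each of 10 density classes (black line). Sst, Npy and Cck (red, called) lie below the line by more than their intervals, and Tac1 and Gal lie above it.

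The genes around the precursors were read from lists of other peptides, receptors and processing proteins. Of 34 other neuropeptide precursors, 15 reached a mean count of 10, and 2 of these were called, both lower in replicate 2, a share close to the 11.5% of all tested genes called lower. The densest was Pnoc, the nociceptin precursor, with 107 and 193 footprints, 83.3 ± 25.9 CPM per kb (SD, n = 2) and a log2 ratio of -0.76. The other call was Hcrt, the orexin precursor of the lateral hypothalamus, with 18 and 19 footprints and a log2 ratio of -1.42. Grp, encoding gastrin-releasing peptide, had 79.2 ± 3.79 CPM per kb, Nts, encoding neurotensin, 76.5 ± 1.73, and Avp, encoding vasopressin, 64.7 ± 7.16 (SD, n = 2). None of the other 34 was as dense as Penk, Tac1, Npy, Cck or Sst. Tac4 and Ucn had no footprint in either library, and another 10 had none in 1 of them.

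Receptors were called in both directions. Of 21 receptors in the table, 17 were tested; 2 were called higher and 1 lower in replicate 2, a share close to the 17.4% called over all tested genes, with a median log2 ratio of 0.05 (0.17 with library totals). Adcyap1r1, the receptor of PACAP, was the densest at 203 ± 16.5 CPM per kb (SD, n = 2), above its ligand gene at 49.8. It had 503 and 1590 footprints and a log2 ratio of 0.04. Oprl1, the nociceptin receptor, followed at 106 ± 22.9 CPM per kb with a log2 ratio of 0.31, and was called. Among somatostatin receptors, Sstr1 at 69.8 ± 10.2 CPM per kb was called lower (-0.42) and Sstr2 at 24.8 ± 9.77 was called higher (0.69). The call of Sstr1 was lost with library totals and with the highest transcript per gene, and both calls higher were lost with the highest transcript and without the count filter (0 called in each). Oprm1, the mu opioid receptor, had 28 and 109 footprints and 56.7 CPM per kb over the short coding sequence of its most counted transcript, but 13.02 over its longest. Vipr1 and Galr2 were among the lowest receptors, with 0 and 12 footprints and with 1 and 4; they and the receptors in the next sentence were chosen after their values were seen. Npy1r at 14.4 CPM per kb, Cckbr at 13.03 and Oprk1 at 10.5 lay below the density of their ligand genes Npy, Cck and Pdyn.

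Processing enzymes and granule proteins ran from low to high density, and most were lower in replicate 2. All 15 were tested, 9 were called lower and 2 higher, and the median log2 ratio was -0.40 (-0.27 with library totals). Of all tested genes 11.5% were called lower. The list's median density was 121 CPM per kb, and in density classes 9 and 10, 26.4% and 50.0% of genes were called lower. With the density trend removed, 9 of the list were again called lower and 2 higher. Cpe, the carboxypeptidase that trims basic residues after cleavage, had 1737 and 2838 footprints, 514 ± 193 CPM per kb (SD, n = 2) and a log2 ratio of -0.91. Pcsk1n, which encodes an inhibitor of the convertase PC1, had 439 ± 241 CPM per kb and the lowest ratio of the list, -1.30. Scg5, the chaperone of the convertase PC2, had 424 ± 109 CPM per kb and a log2 ratio of -0.66, and Scg2, a granin, had 194 ± 25.7 and -0.40. Cadps2, a factor in granule release, had the highest ratio, 0.85. Pam, which amidates peptide ends, was the other one called higher, at 0.48. Of the enzyme genes, Cpe and Pcsk2 were called lower. Pam, Qpct, Furin and Pcsk1 were not, and had 39.3, 32.4, 17.4 and 4.52 CPM per kb.

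**Figure D4:**
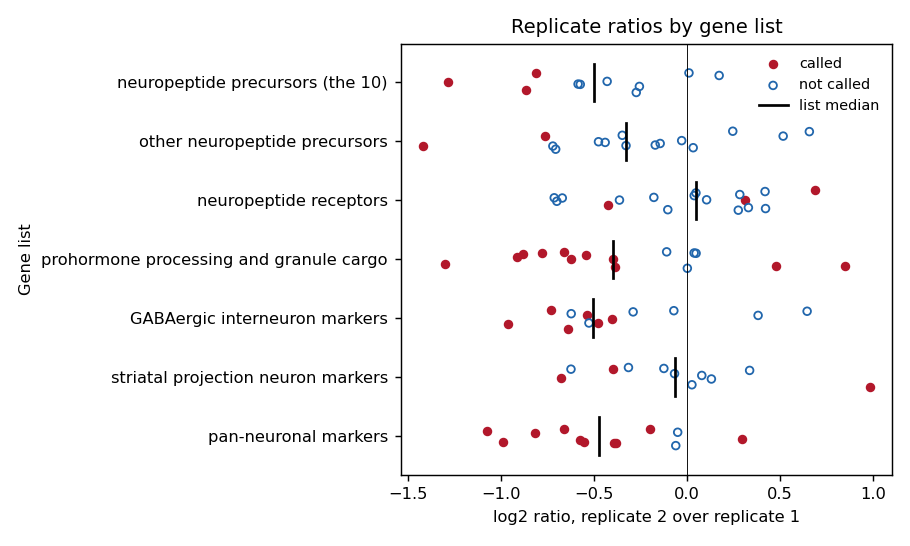
Log2 ratio of replicate 2 over replicate 1 for the tested genes of each list, one row per list; filled red points were called between the replicates, open blue points were not, and the black bar is the list median. The medians are -0.50 for the 10 precursors, -0.40 for processing and granule proteins and 0.05 for receptors. The median is -0.50 for the list labelled GABAergic interneuron markers, whose genes are not all specific to interneurons.

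Markers of cell types that the tissue could hold were read the same way, against 11.5% of all tested genes called lower and 5.95% higher. The 12 genes listed as GABAergic interneuron markers are not all specific to interneurons, Gad1, Gad2 and Slc32a1 among them. All 12 were tested, 6 were called lower and 0 higher, with a median log2 ratio of -0.50 and sums of 964 and 800 CPM. The densest were Gad1 (-0.07, not called), Slc32a1 (-0.73), Maf (-0.40) and Gad2 (-0.48). Of the 12, 10 were below 0, while Lhx6 (0.65) and Dlx6 (0.38) were above it and were not called. The 11 genes listed as striatal markers were not tested for being specific to striatal neurons either. Of these 2 were called lower and 1 higher, with a median of -0.07 (0.06 with library totals) and sums of 681 and 684 CPM. Of 12 pan-neuronal markers 9 were called lower and 1 higher, with a median of -0.47. Their densities ran from 137 to 1346 CPM per kb, within density classes 9 and 10, where 26.4% and 50.0% of genes were called lower. Of 9 glutamatergic markers 5 were called lower and 1 higher, with a median of -0.37, with sums of 1263 and 973 CPM. Of 7 astrocyte markers 2 were called lower, with a median of -0.13 (-4.01e-05 with library totals). The hypothalamic list had 4 tested genes, of which Six3 and Otp were called lower, and sums of 80.4 and 60.4 CPM. Their part in the ratios of Sst, Npy and Cck was not tested.

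The 7 pituitary hormone genes had sums of 13.4 and 3.23 CPM. Gh, the growth hormone gene, had 15 footprints in replicate 1 and 0 in replicate 2. Pomc had 8 and 9 footprints and Cga 1 and 5, while Prl and Tshb were at 0 in both libraries. Their part in the precursor levels was not tested.

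Among the promoter matches printed above, those of Sst and Cck, both called lower in replicate 2, lie 48 and 47 bases before the start, and that of Tac1, which was not called, lies 43 bases before it. Vip and Adcyap1 hold a match and were not called, with log2 intervals of -1.41 to 0.92 and -1.07 to -0.11. A gene that was not called is not shown to be unchanged, so calls cannot be set against sites to judge them. No match was found for Npy, which was called, or for Pdyn and Gal, which says only that these letters are not in this window. Cartpt holds the same full site as Sst and was not called, with a log2 ratio of -0.57. Tac1 has another short site 197 bases before its start. The printed site of Adcyap1 also lies 242 bases before another of its annotated starts. A match is a string of letters, and footprint counts do not show whether a factor was bound.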

How the data were processed

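Brains of 2 control mice at postnatal day 5 were profiled. The authors deposited whole-number counts of footprints per transcript, unnormalised, 1 column per replicate, with annotated lengths. The submitters' processing notes name Trimmomatic 0.36, Bowtie2 2.2.6, SAMtools and the build GRCm38.p4; the counting tool, and the handling of duplicates, of fragments matching several places and of strand, are not given in the sources used here, so counts of near-identical genes are uncertain. The labels call the samples biological replicates.

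Counts of a gene's transcripts were summed. CPM used library totals; coding density used the coding length of the gene's coding transcript with the most footprints. Replicates were compared with a two-sided exact binomial test at the ratio of TMM effective library sizes (edgeR 4.0.16; factors 0.957 and 1.04), adjusted by Benjamini-Hochberg over 16427 genes whose counts averaged 10 or more, and called at an adjusted p under 0.05. With 1 group there is no contrast for a quasi-likelihood test. Log2 ratios used a prior of 0.5 CPM. The trend with density was a lowess fit (statsmodels 0.14.6, fraction 0.3) over coding genes. DESeq2 1.42.0 size factors were an alternative. Intervals are 95% Clopper-Pearson intervals and, like the floor of 3 counts, cover counting error only, since PCR copies are not independent molecules. Members and lists were chosen with earlier results of these data known. Apart from the 10 members, the 4 densest genes of each list and the called extremes of the precursor, receptor and processing lists were to be named. Further marker lists are given by counts, and other genes named were chosen after their values were seen. Galr3 was not analysed here.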

Additional observations from a re-analysis of the deposited data

How the results depend on the processing

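Sst, Cck and Npy were the 3 precursors called under DESeq2 size factors, library totals, the highest transcript per gene, coding transcripts only, no count filter and removal of the density trend. With edgeR's exact test at the common dispersion, the number called was 0, at adjusted p of 0.272 for Sst and 1 for Cck and Npy. The median log2 ratio of the 10 ranged from -0.51 to -0.38 over these settings and a prior of 0.1 CPM.

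The summed level was 445 to 671 CPM and the median density 84.5 to 95.3 CPM per kb when either replicate was left out. The highest transcript per gene, scaled to the total of highest transcripts, gave a summed level of 927 CPM. Against 88.4 CPM per kb, the median density was 111 with coding transcripts only and 46.7 with transcript length in place of coding length. Sst, Cck and Npy held the first 3 places in each setting except without replicate 1, where Tac1 passed Npy. With the highest transcript per gene, Tac1 fell below Penk and Adcyap1. With transcript length in place of coding length, Adcyap1 fell below Gal and Cartpt.

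The settings for the other lists were chosen after the data were seen. Receptors called lower numbered 0 with library totals, 0 with the highest transcript and 2 with the trend removed, in place of 1. Receptors called higher numbered 0 with the highest transcript and 0 without the count filter, in place of 2. With the highest transcript, other precursors called lower numbered 1 in place of 2, and processing genes called higher 0 in place of 2. EdgeR's exact test called 0 in all 3 lists. No paired analysis was possible because the labels give 1 group. Over all tested genes, 2861 were called, against 1444 with the highest transcript per gene and 11 with edgeR's exact test. A log2 ratio cannot be had with 1 replicate left out. At 10 to 41 footprints in replicate 1, Vip, Gal, Cartpt and Pdyn had counting intervals of over 1 log2 unit.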
